A study of Homo sapiens with 21 samples.

Results

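The response of RS4;11 cells to 24 h without asparagine was read from 6 RNA libraries among the 21 samples of the series: the 3 libraries of cells in asparagine-free medium (-Asn) and the 3 of cells in complete medium (+Asn). RS4;11 is an established human line of precursor B acute lymphoblastic leukaemia that carries the KMT2A-AFF1 fusion, which all groups share. A further 3 RNA libraries came from cells that were likewise deprived of asparagine for 24 h and given iron as 10 µM ferric nitrate together with the iron carrier hinokitiol at 0.75 µM (-Asn+Fe), and are given only side by side. RNA was whole-cell RNA of a single line. Whether libraries of one medium are separate cultures is not stated in the labels, so p-values here measure a spread that may be technical. All 60558 genes on the primary chromosomes (1 to 22, X, Y and the mitochondrial genome) were members, of 66738 in the deposited table, and 17692 of them passed the filter on low counts and were tested. A gene reached the test when its count was high enough in enough libraries of any medium, so genes silent in all 3 media are not among those tested.

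Asparagine is the amide of aspartate, made in the cell by asparagine synthetase, and leukaemic lymphoblasts that make little of it depend on the medium or the blood, which is the basis of asparaginase treatment. When an amino acid runs short, uncharged tRNA activates the kinase GCN2, which phosphorylates the initiation factor eIF2, lowers general translation and favours translation of the transcription factor ATF4. ATF4 and its partners drive genes for amino acid synthesis, transport and tRNA charging, while low amino acid supply also lowers mTORC1 signalling and with it growth and cell division. The best known genes of that response are only touched on here, beside the genes and functions that changed around them.

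The 6 libraries held 36717915 to 41840864 counts in -Asn and 39122375 to 40951774 in +Asn. Levels below are in CPM, a gene's counts relative to the library's total, scaled to a common depth with the TMM factors of edgeR, which ran from 1.02 to 1.06 in -Asn and from 0.888 to 0.913 in +Asn. All 14 precursor B markers (among them PAX5, EBF1 and IGLL1) and all 8 markers of KMT2A-rearranged leukaemia averaged at least 1 CPM in one of the media or both, and none of 7 erythroid markers did. Of the B markers 3 were called higher and 11 lower. Their sum stood at 2760.0 to 2830 CPM in -Asn and 3146 to 3250 CPM in +Asn, of which PAX5 held the most. IGLL1, a part of the surrogate light chain, averaged 66.9 CPM in -Asn against 281 CPM in +Asn (log2 fold change -2.07 ± 0.10, edgeR adjusted p = 4.4e-11). RAG1, a recombinase of antigen receptor genes, averaged 63.7 CPM in -Asn against 282 CPM in +Asn (log2 fold change -2.14 ± 0.12, edgeR adjusted p = 4e-10), whereas PAX5 averaged 1314 CPM in -Asn and 967 CPM in +Asn. Of 10 myeloid markers 4 reached that level, and the 10 summed to 21.97 to 23.99 CPM in -Asn against 14.9 to 15.5 CPM in +Asn. Of 10 T cell markers 2 reached it (TRAC and BCL11B), and of 10 epithelial or stromal markers also 2 (PDGFRB and COL1A1).

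Replicate 1 of -Asn stood apart from the other -Asn libraries. Of 10011 genes averaging 5 CPM or more, 223 lay over 1.5-fold below both other -Asn libraries in it and 28 over 1.5-fold above, against 0 to 4 such genes in either direction for replicates 2 and 3. The low genes were long, with a median exonic length of 11199 bases against 5348 bases over all genes at that level. Among coding genes at that level with over 8000 exonic bases, the median log2 ratio to the +Asn mean was -0.32 in -Asn replicate 1, -0.12 in replicate 2 and -0.11 in replicate 3. At the short end, among 72 coding genes of up to 1000 exonic bases, it was -0.01 in replicate 1, -0.45 in replicate 2 and -0.44 in replicate 3. With replicate 1 left out, 707 of the 2291 long genes were called higher and 1096 lower, against 589 and 1091 with it. The part that RNA length or quality plays in other results was not tested. List counts that moved by over 1.5 times without this library, or with library totals in place of TMM factors, are given below beside the list.

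Most of the genes tested changed. Of the 17692 genes tested, 10888 (61.5%) passed an adjusted p of 0.05 in edgeR's quasi-likelihood test with Benjamini-Hochberg adjustment over all genes, 5516 (31.2%) higher in -Asn and 5372 (30.4%) lower. At least 2-fold changes were more often rises, with 2588 genes (14.6%) higher and 1464 (8.27%) lower, and at least 8-fold changes were 375 rises (2.12%) and 33 falls (0.187%). The -Asn and +Asn values did not overlap in 65.7% of all genes tested, so a gene whose groups are apart was the usual case. Genes named below for their fold change, within or outside the lists, had to have groups that are apart. For them, statements that the libraries do not overlap restate that rule and are no further support. The first principal component of log2 CPM over the 6 libraries separated the media and held 81.0% of the variance. The median log2 fold change over all genes was 0.04, and the split between rises and falls depended on the scaling. With library totals in place of TMM factors the median was 0.25 and 7282 genes were called higher against 3819 lower, and with upper-quartile factors the median was 0.20 and the counts were 6809 and 4229. Fewer cells in a given state and less RNA per cell cannot be told apart in these bulk libraries.

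The genes that rose at least 2-fold made up 6.39% to 6.58% of the counts in the -Asn libraries, against 1.81% to 1.86% in the +Asn libraries. The genes that fell at least 2-fold held 6.08% to 6.14% of the counts in -Asn, against 13.78% to 13.98% in +Asn. In -Asn both classes thus held similar shares, though the risen genes were more numerous. Their unlike shares in +Asn follow in part from the choice of the classes by fold change.

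In CPM, the largest gains went to a mixture of stress, translation and housekeeping genes. WARS1, the cytosolic tryptophanyl-tRNA synthetase, had 2076, 1918 and 1951 CPM in the -Asn libraries and 98.2, 100 and 94.7 CPM in the +Asn libraries. EEF2, which moves the ribosome along the mRNA, had 5289, 4612 and 4467 CPM in -Asn against 3047, 2891 and 2908 CPM in +Asn (log2 fold change 0.70 ± 0.08, edgeR adjusted p = 1.5e-06). All 3 -Asn libraries lay above all 3 +Asn libraries for both genes. TPT1, the translationally controlled tumour protein, had 3498, 2431 and 2572 CPM in -Asn against 1799, 1832 and 1907 CPM in +Asn, and its highest value was that of -Asn replicate 1. EIF1, the factor that guards start codon choice, had 1332, 1090.5 and 1096 CPM in -Asn against 418, 366 and 396 CPM in +Asn (log2 fold change 1.58 ± 0.09, edgeR adjusted p = 2.8e-10). ASS1, argininosuccinate synthase, which uses aspartate to make the precursor of arginine, had 788, 639 and 630.2 CPM in -Asn against 49, 46.7 and 44.6 CPM in +Asn (log2 fold change 3.87 ± 0.09, edgeR adjusted p = 7.9e-15). For both, the lowest -Asn library was over 2-fold above the highest +Asn library. ATF5, a bZIP factor close to ATF4, had 1074, 869 and 856 CPM in -Asn against 93.1, 94.3 and 91 CPM in +Asn. OGT, the transferase that puts O-linked N-acetylglucosamine on nuclear and cytosolic proteins, had 865, 1248 and 1195 CPM in -Asn against 465, 513 and 505 CPM in +Asn (log2 fold change 1.16 ± 0.11, edgeR adjusted p = 9.7e-08). OGT was lowest of the -Asn libraries in replicate 1, and ATF5 highest there. TMBIM6, a calcium-handling membrane protein of the endoplasmic reticulum, averaged 1057 ± 32.3 CPM in -Asn and 474 ± 31.9 CPM in +Asn (SD, n = 3 each). HSPA9, the mitochondrial HSP70, averaged 1368 ± 43.9 CPM in -Asn and 791 ± 36 CPM in +Asn (SD, n = 3 each), and MALAT1, an abundant nuclear noncoding RNA, averaged 2690.2 ± 589 CPM in -Asn and 1051 ± 142 CPM in +Asn. In each of these genes the lowest -Asn library was above the highest +Asn library.

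**Figure D1:**
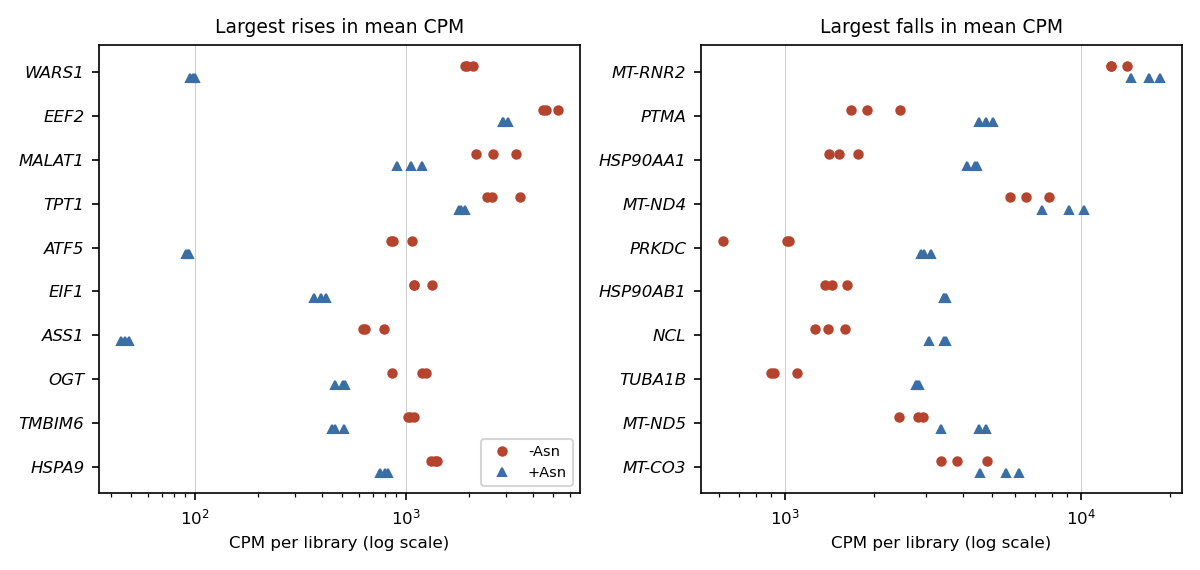
CPM of each -Asn (circles) and +Asn (triangles) library, on a log axis, for the 10 genes with the largest rise (left) and the 10 with the largest fall (right) in mean CPM among called genes. The groups are apart in all rows except MT-ND4 and MT-CO3, and PRKDC is lowest in -Asn replicate 1.

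Among the largest losses in CPM were genes of growth and protein folding. PTMA, prothymosin alpha, a nuclear protein abundant in dividing cells, had 2452, 1674 and 1889.6 CPM in the -Asn libraries and 4508, 5027 and 4795 CPM in the +Asn libraries (log2 fold change -1.25 ± 0.11, edgeR adjusted p = 5.4e-08). NCL, nucleolin, a major protein of the nucleolus, had 1592, 1263 and 1394 CPM in -Asn against 3059, 3507 and 3453 CPM in +Asn (log2 fold change -1.24 ± 0.09, edgeR adjusted p = 6.6e-09). TUBA1B, an alpha tubulin, had 1103, 901 and 919 CPM in -Asn against 2805, 2842 and 2765 CPM in +Asn (log2 fold change -1.53 ± 0.09, edgeR adjusted p = 2.1e-10). For these 3 genes every -Asn library was below every +Asn library. The cytosolic HSP90 chaperones fell alike: HSP90AA1 averaged 1566 ± 181 CPM in -Asn and 4319 ± 177 CPM in +Asn, and HSP90AB1 averaged 1474 ± 129.9 CPM in -Asn and 3461 ± 30.7 CPM in +Asn (SD, n = 3 each). PRKDC, the catalytic subunit of DNA-dependent protein kinase, had 617, 1035 and 1015 CPM in -Asn against 2883, 2947 and 3125 CPM in +Asn (log2 fold change -1.75 ± 0.15, edgeR adjusted p = 5.7e-08), with replicate 1 lowest. Mitochondrial transcripts also stood on this list with small fold changes: MT-RNR2, the large ribosomal RNA, had 14286, 12576 and 12623 CPM in -Asn against 14749, 18489 and 16994 CPM in +Asn (log2 fold change -0.35 ± 0.10, edgeR adjusted p = 0.0055). MT-ND4, a subunit of complex I, had 7804, 5763 and 6499 CPM in -Asn against 7398, 10211 and 9096 CPM in +Asn, and its groups overlapped. Of 32 mitochondrial genes tested, 0 were called higher and 23 lower (71.9%, against 30.4% of all genes tested), but the calls of MT-RNR2, MT-ND4 and MT-CO3 were lost with library totals (edgeR adjusted p = 0.17, 0.12 and 0.084). Before scaling, mitochondrial genes held 6.80%, 5.51% and 5.86% of the counts in the -Asn libraries. In the +Asn libraries they held 5.78%, 7.41% and 6.83%, so the shares overlapped.

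Outside every gene list, the largest rises were in genes close to silent in complete medium. ASXL3 (chr18:33578219-33751195), a scaffold of the BAP1 histone deubiquitinase, had 16.2, 19.9 and 22.1 CPM in the -Asn libraries and 0.241, 0.0576 and 0.112 CPM in the +Asn libraries (log2 fold change 7.09 ± 0.23, edgeR adjusted p = 1.8e-13). OSCAR, an immunoglobulin-like receptor first described on osteoclasts, had 11.2, 10.6 and 10.2 CPM in -Asn against 0.0535, 0.0576 and 0.196 CPM in +Asn (log2 fold change 6.66 ± 0.24, edgeR adjusted p = 8.2e-13). TREML2 (chr6:41189749-41201149), a receptor of the TREM family found on myeloid and B cells, had 31.2, 29.9 and 29.9 CPM in -Asn against 0.375, 0.259 and 0.252 CPM in +Asn (log2 fold change 6.66 ± 0.14, edgeR adjusted p = 1.6e-15). In complete medium all 3 were under 0.5 CPM in every library, and after starvation all were above 10 CPM in every library. NIBAN1, a protein induced in stressed cells, had 57.7, 71.8 and 73.2 CPM in -Asn against 0.643, 0.72 and 0.645 CPM in +Asn. BEST1, a chloride channel of the bestrophin family, had 19.6, 18 and 18.5 CPM in -Asn against 0.187, 0.23 and 0.14 CPM in +Asn. CALML6, a calmodulin-like protein, had 17.6, 18.7 and 14.6 CPM in -Asn against 0.214, 0.202 and 0.28 CPM in +Asn. The +Asn levels of these genes rest on few counts, so their fold changes are less certain than their -Asn levels: leaving out +Asn replicate 1 moved the log2 fold change of ASXL3 to 7.76, and leaving out +Asn replicate 3 moved that of OSCAR to 7.50.

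JUN, a component of the AP-1 transcription factor, had 144, 138 and 130.3 CPM in the -Asn libraries and 4.31, 3.46 and 4.15 CPM in the +Asn libraries (log2 fold change 5.11 ± 0.10, edgeR adjusted p = 9.7e-16), the highest -Asn level of the 12 risen genes of this kind. DPYSL3, a cytoskeletal protein of the collapsin response mediator family, had 41, 38.4 and 39.3 CPM in -Asn against 1.29, 0.893 and 1.35 CPM in +Asn (log2 fold change 5.07 ± 0.12, edgeR adjusted p = 6.1e-15). TOX2, an HMG-box transcription factor, had 16.8, 16.5 and 14.8 CPM in -Asn against 0.268, 0.288 and 0.448 CPM in +Asn. The groups were at least 10-fold apart for each. TM6SF1, a membrane protein, averaged 48.4 ± 3.03 CPM in -Asn and 1.15 ± 0.0865 CPM in +Asn; ARSG, a lysosomal sulfatase, 18.6 ± 1.65 CPM in -Asn and 0.82 ± 0.256 CPM in +Asn; and MICAL2, an actin-oxidising enzyme, 15.5 ± 0.602 CPM in -Asn and 0.704 ± 0.0402 CPM in +Asn (SD, n = 3 each).

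**Figure D2:**
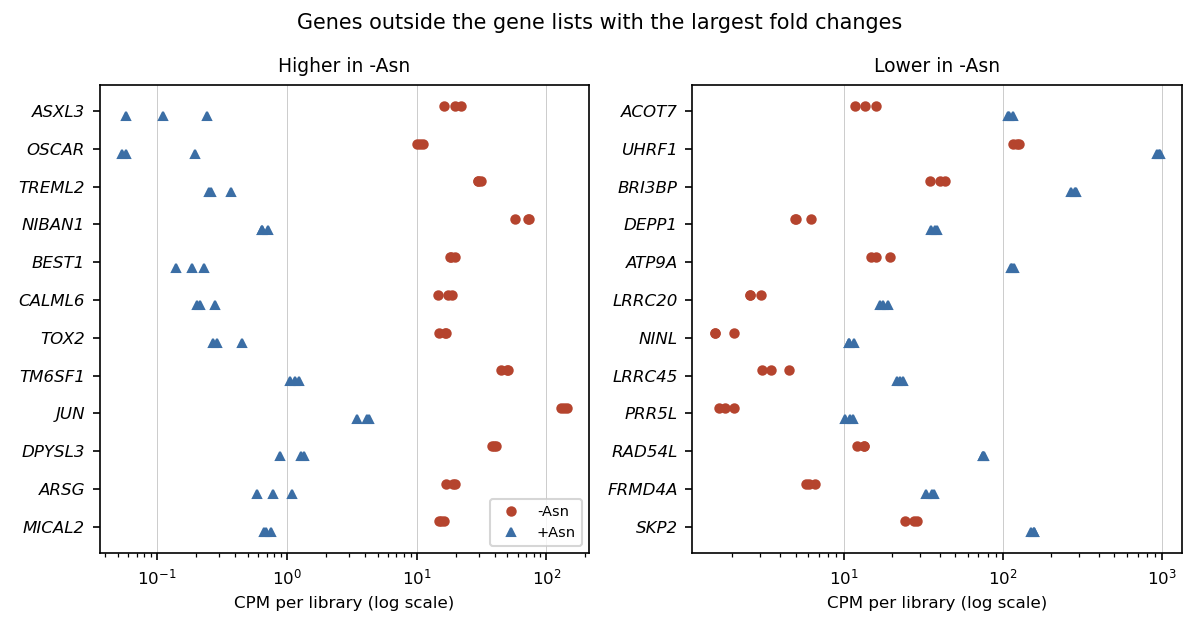
CPM of each -Asn (circles) and +Asn (triangles) library, on a log axis, for the 12 genes outside the gene lists with the largest rise (left) and the largest fall (right) in fold change among called genes whose mean level reached 5 CPM. Only genes whose groups are apart were taken. Risen genes such as ASXL3 and OSCAR start below 0.3 CPM in +Asn. Of the fallen genes, UHRF1 keeps over 100 CPM in -Asn, while others such as NINL and PRR5L lie far lower there.

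The largest falls outside the lists were smaller in fold than the rises. ACOT7, a cytosolic thioesterase of long-chain acyl-CoA, had 16, 13.7 and 11.8 CPM in the -Asn libraries and 115, 109.8 and 107 CPM in the +Asn libraries (log2 fold change -3.001 ± 0.10, edgeR adjusted p = 4.1e-13). UHRF1, which binds hemimethylated DNA behind the replication fork and recruits DNA methyltransferase 1, had 122.7, 126 and 116 CPM in -Asn against 932, 963 and 957 CPM in +Asn (log2 fold change -2.96 ± 0.07, edgeR adjusted p = 6e-15). SKP2, the F-box protein that marks the cell cycle inhibitor p27 for destruction, had 24.2, 27.6 and 29 CPM in -Asn against 156, 157 and 149 CPM in +Asn (log2 fold change -2.51 ± 0.08, edgeR adjusted p = 1.5e-13). UHRF1 lost the most CPM of the 12 fallen genes. RAD54L, a helicase of homologous recombination, had 13.4, 13.4 and 12.2 CPM in -Asn against 74.8, 74.9 and 75.6 CPM in +Asn. ATP9A, a lipid flippase of endosomes, had 15, 19.4 and 15.9 CPM in -Asn against 118, 114 and 112 CPM in +Asn. BRI3BP, a mitochondrial membrane protein, had 34.9, 40.5 and 43.3 CPM in -Asn against 288, 268 and 283 CPM in +Asn. Each was at least 5-fold lower in -Asn. NINL, a protein of the centrosome, averaged 1.73 ± 0.293 CPM in -Asn and 11.1 ± 0.404 CPM in +Asn. LRRC45, also of the centrosome, averaged 3.7 ± 0.76 CPM in -Asn and 22.6 ± 1.06 CPM in +Asn. PRR5L, a partner of mTORC2, averaged 1.83 ± 0.195 CPM in -Asn and 10.8 ± 0.638 CPM in +Asn, and DEPP1, a known target of FOXO factors, averaged 5.4 ± 0.701 CPM in -Asn and 37.2 ± 1.6 CPM in +Asn (SD, n = 3 each). FRMD4A, a scaffold of cell polarity, and LRRC20 completed the 12, with log2 fold changes of -2.52 and -2.71.

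Genes were next read by function, in 74 lists. With TMM factors, more members were called lower than higher in 48 lists and more higher than lower in 25, against 31.2% higher and 30.4% lower over all genes. This majority depended on the scaling, since with library totals more lists leaned up than down. The actin cytoskeleton list, for example, moved from 16 higher and 33 lower to 22 higher and 19 lower. Counts and medians of lists are descriptions, set beside those shares and the median of 0.04 over all genes tested. Among coding genes with a mean above 5 CPM the background itself leaned down, with 2639 of 9386 called higher and 4330 lower. Below that level it leaned up, with 657 of 1512 coding genes higher and 343 lower from 1 to 5 CPM, and 540 of 1503 higher and 144 lower under 1 CPM.

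**Figure D3:**
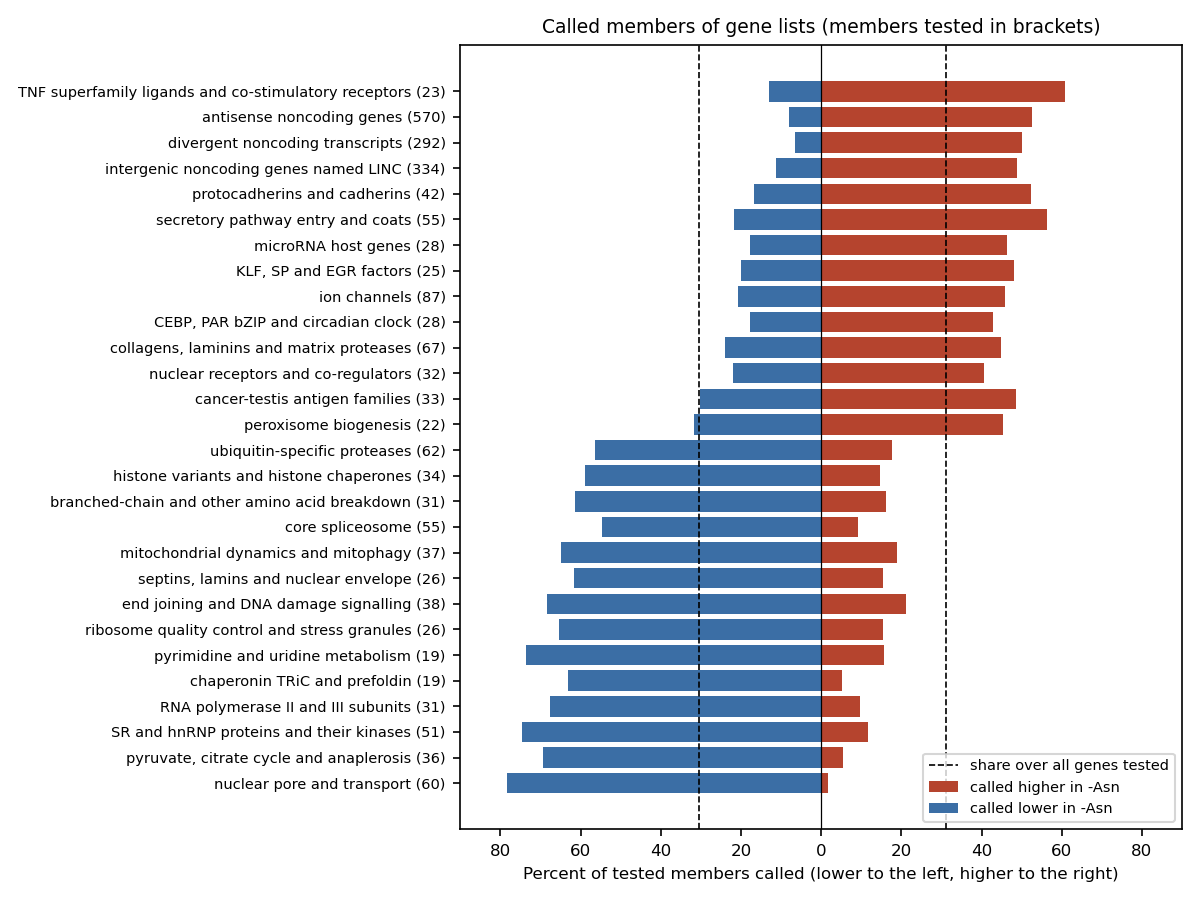
Percent of tested members called higher (to the right) and lower (to the left) in -Asn for the 14 lists leaning most to each side among those with at least 15 tested members. Dashed lines mark the shares over all genes tested, 31.2% and 30.4%; nuclear pore and transport leans furthest down and TNF superfamily ligands and co-stimulatory receptors furthest up.

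Nuclear transport leaned furthest down. Nuclear pores let proteins and RNA pass under the control of the small GTPase RAN and of importin and exportin carriers, and this list had 1 of the 60 members tested higher and 47 lower, with a median log2 fold change of -0.63. ALYREF, an adaptor that hands spliced mRNA to the export receptor, had 46.1, 38.1 and 40.5 CPM in the -Asn libraries and 169, 161 and 157 CPM in the +Asn libraries (log2 fold change -1.97 ± 0.08, edgeR adjusted p = 5.8e-12). XPO1, the main exportin for proteins, had 189.6, 232 and 244 CPM in -Asn against 809, 816 and 833 CPM in +Asn (log2 fold change -1.88 ± 0.09, edgeR adjusted p = 1.7e-11). Both were at least 3-fold lower with no overlap. XPOT, the exportin of tRNA, was the single member called higher, with 528, 603 and 630.0 CPM in -Asn against 343, 374 and 370.4 CPM in +Asn (log2 fold change 0.70 ± 0.08, edgeR adjusted p = 7e-07). With library totals the counts were 6 higher and 44 lower.

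Splicing genes and RNA polymerase subunits leaned the same way. The core spliceosome had 5 of the 55 members tested higher and 30 lower, with a median log2 fold change of -0.27, and the SR and hnRNP proteins with their kinases had 6 of the 51 members tested higher and 38 lower, with a median log2 fold change of -0.45. With library totals the core spliceosome had 13 higher and 21 lower (median -0.06), and the SR and hnRNP list 10 higher and 27 lower. SNRNP25, a protein of the minor spliceosome, had 19.6, 14.7 and 16.2 CPM in -Asn against 51.9, 45.5 and 50.1 CPM in +Asn (log2 fold change -1.55 ± 0.11, edgeR adjusted p = 5.6e-09). SRSF2, a splicing activator, had 262, 247 and 248 CPM in -Asn against 634, 632 and 608 CPM in +Asn (log2 fold change -1.31 ± 0.06, edgeR adjusted p = 3.3e-11). HNRNPAB, an RNA-binding protein, had 312, 246 and 248 CPM in -Asn against 659, 663 and 677 CPM in +Asn. These 3 were all at least 2-fold lower. PLRG1, a spliceosome activation factor, went the other way, with 140.1, 128 and 143 CPM in -Asn against 88.5, 87.5 and 91.6 CPM in +Asn (log2 fold change 0.62 ± 0.07, edgeR adjusted p = 4.2e-07). CLK4, a kinase that phosphorylates SR proteins, had 45.7, 50.4 and 56.2 CPM in -Asn against 33.8, 36.7 and 35.7 CPM in +Asn (log2 fold change 0.52 ± 0.08, edgeR adjusted p = 4.4e-05). Subunits of RNA polymerases II and III had 3 of the 31 members tested higher and 21 lower, with a median log2 fold change of -0.44, and with library totals 6 higher and 18 lower. Mediator and TFIID genes had 10 of 45 higher and 20 lower, median log2 fold change -0.13, close to coding genes above 5 CPM, and with library totals 15 higher and 11 lower (median 0.07). In polymerase III, which makes tRNA, the members went both ways: POLR3C had 190.1, 178 and 184 CPM in -Asn against 75.2, 83.6 and 76.9 CPM in +Asn (log2 fold change 1.23 ± 0.07, edgeR adjusted p = 1.3e-10). POLR3G, a subunit known from stem cells and dividing cells, had 6.63, 6.65 and 5.98 CPM in -Asn against 22.6, 26 and 23.01 CPM in +Asn (log2 fold change -1.90 ± 0.11, edgeR adjusted p = 1.9e-10). HNRNPR, an RNA-binding protein, averaged 0.164 ± 0.0424 CPM in -Asn and 0.899 ± 0.338 CPM in +Asn (SD, n = 3 each), a low count that is also uncertain, although no other gene model in the table overlaps it. HNRNPL, whose gene model overlaps others in the table and whose count is therefore uncertain, averaged 1.09 ± 0.165 CPM in -Asn and 1.83 ± 0.355 CPM in +Asn.

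Genes of mRNA decay had 15 of 62 higher and 32 lower, median log2 fold change -0.30. BTG1, an antiproliferative partner of the deadenylase complex, had 355, 314 and 329.7 CPM in the -Asn libraries and 97.5, 97.2 and 88.9 CPM in the +Asn libraries (log2 fold change 1.82 ± 0.07, edgeR adjusted p = 2.8e-12). Its relative BTG2 had 82.8, 74.6 and 73.7 CPM in -Asn against 30.5, 27.6 and 28.5 CPM in +Asn (log2 fold change 1.41 ± 0.07, edgeR adjusted p = 7.9e-11). In both genes the lowest -Asn library was above the highest +Asn library by more than 2-fold. ZFP36L2, which binds AU-rich mRNA, had 64.9, 77 and 73.9 CPM in -Asn against 184, 179.8 and 164 CPM in +Asn (log2 fold change -1.29 ± 0.08, edgeR adjusted p = 3.2e-10). LSM3, a ring protein of decay and splicing, had 37.8, 28.7 and 28.6 CPM in -Asn against 81.7, 85 and 80.3 CPM in +Asn (log2 fold change -1.38 ± 0.10, edgeR adjusted p = 4.3e-09). Both fell.

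The lean of translation genes depended on the scaling. Initiation factors had 10 of 46 higher and 17 lower, median log2 fold change -0.01, and with library totals 26 higher and 12 lower. The sign of their median turned, to 0.20 with library totals and 0.14 with upper-quartile factors. EIF2S2, the beta subunit of eIF2, had 495, 338 and 368 CPM in -Asn against 221, 239 and 232 CPM in +Asn (log2 fold change 0.80 ± 0.11, edgeR adjusted p = 1.4e-05). EIF5A, the factor that carries hypusine and helps the ribosome past hard stretches, had 307, 259 and 252 CPM in -Asn against 732, 662 and 664 CPM in +Asn (log2 fold change -1.33 ± 0.08, edgeR adjusted p = 5e-10). The first was higher and the second lower in every -Asn library. DHPS, the enzyme that begins the making of hypusine, averaged 4.45 ± 0.17 CPM in -Asn and 8.28 ± 0.47 CPM in +Asn (SD, n = 3 each; log2 fold change -0.89 ± 0.13, edgeR adjusted p = 1.1e-05). Enzymes of tRNA modification had 11 of the 65 members tested higher and 33 lower, with a median log2 fold change of -0.25, and with library totals 23 higher and 19 lower. MTO1, which modifies mitochondrial tRNA, had 221, 218 and 226 CPM in -Asn against 94.8, 93 and 93.1 CPM in +Asn (log2 fold change 1.24 ± 0.06, edgeR adjusted p = 4.7e-11). PUS7, a pseudouridine synthase, had 51.1, 48.4 and 54.9 CPM in -Asn against 143, 153 and 152 CPM in +Asn (log2 fold change -1.54 ± 0.07, edgeR adjusted p = 1.7e-11).

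Genes of the secretory pathway leaned up. The list of signal recognition, translocation and vesicle coats had 31 of the 55 members tested higher and 12 lower, with a median log2 fold change of 0.28, and with library totals 40 higher and 6 lower. STX5, a membrane fusion protein of the Golgi, had 90.5, 83 and 79.5 CPM in the -Asn libraries and 32, 28.3 and 30.8 CPM in the +Asn libraries (log2 fold change 1.47 ± 0.08, edgeR adjusted p = 5.8e-11). GOLGA2, a Golgi matrix protein, had 104, 87.6 and 90.6 CPM in -Asn against 42, 46.3 and 46.1 CPM in +Asn (log2 fold change 1.07 ± 0.08, edgeR adjusted p = 3.4e-09). Every -Asn library was above every +Asn library. SRP9, a subunit of the signal recognition particle, had 173, 147 and 159 CPM in -Asn against 264, 265 and 251 CPM in +Asn and was lower (log2 fold change -0.71 ± 0.08, edgeR adjusted p = 8.4e-07). Asparagine is also the residue to which N-linked glycans are attached, and the enzymes of that pathway had 15 of the 56 members tested higher and 19 lower, with a median log2 fold change of -0.14. Their lean depended on the processing, with 13 higher and 28 lower without -Asn replicate 1, and 21 higher and 13 lower with library totals (median log2 fold change 0.06). GFPT1, which begins the hexosamine pathway with glutamine as amide donor, had 267, 325 and 353 CPM in -Asn against 133, 137 and 136 CPM in +Asn (log2 fold change 1.22 ± 0.09, edgeR adjusted p = 3.6e-09). ALG2, an early mannosyltransferase of the lipid-linked glycan, had 51.5, 50.6 and 55.7 CPM in -Asn against 19.7, 19.4 and 19.1 CPM in +Asn (log2 fold change 1.44 ± 0.07, edgeR adjusted p = 3.9e-11). GNPNAT1, the acetyltransferase that follows GFPT1, had 41.7, 42.2 and 47.1 CPM in -Asn against 89.4, 89.9 and 90.7 CPM in +Asn (log2 fold change -1.04 ± 0.07, edgeR adjusted p = 1.6e-09). Enzymes of successive steps of hexosamine synthesis were thus called in opposite directions.

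Genes of the citrate cycle leaned down. Pyruvate, citrate cycle and anaplerosis genes had 2 of the 36 members tested higher and 25 lower, with a median log2 fold change of -0.40, and with library totals 6 higher and 17 lower. DLAT, the acetyl-transferring subunit of pyruvate dehydrogenase, had 74.3, 77.5 and 82.5 CPM in the -Asn libraries and 231, 240.4 and 233.9 CPM in the +Asn libraries (log2 fold change -1.59 ± 0.07, edgeR adjusted p = 6.6e-12). IDH2, the mitochondrial NADP isocitrate dehydrogenase, had 167, 141 and 136 CPM in -Asn against 358, 344 and 341 CPM in +Asn (log2 fold change -1.23 ± 0.08, edgeR adjusted p = 9.8e-10). Both lay lower in every -Asn library. The 2 members called higher with TMM factors were IDH1 and PDHA1. IDH1, the cytosolic counterpart of IDH2, had 164, 161 and 171 CPM in -Asn against 89.4, 91.9 and 89.2 CPM in +Asn (log2 fold change 0.87 ± 0.07, edgeR adjusted p = 6.2e-09). PDHA1, the first subunit of pyruvate dehydrogenase, had 238, 202 and 204 CPM in -Asn against 160.1, 173 and 170.5 CPM in +Asn (log2 fold change 0.35 ± 0.07, edgeR adjusted p = 0.0006). PDHA1 did not pass a test against a 1.2-fold change (edgeR adjusted p = 0.077). SLC25A1, the mitochondrial citrate carrier, had 30.3, 25 and 25.5 CPM in -Asn against 91.6, 78.2 and 86.8 CPM in +Asn (log2 fold change -1.67 ± 0.10, edgeR adjusted p = 3.8e-10).

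Nucleotide supply also leaned down, in 2 lists. Pyrimidine genes had 3 of 19 higher and 14 lower, median log2 fold change -0.63. The pentose phosphate pathway, with the making of phosphoribosyl pyrophosphate, had 4 of 14 higher and 9 lower, median log2 fold change -0.72. NME1, a nucleoside diphosphate kinase, had 23.9, 19.6 and 19.7 CPM in the -Asn libraries and 88, 73.9 and 71.7 CPM in the +Asn libraries (log2 fold change -1.89 ± 0.10, edgeR adjusted p = 5.7e-11). PRPS2, a phosphoribosyl pyrophosphate synthetase, had 25.4, 25.5 and 29.2 CPM in -Asn against 86.8, 87.7 and 88.5 CPM in +Asn (log2 fold change -1.71 ± 0.08, edgeR adjusted p = 8.7e-12). RPIA, which makes ribose 5-phosphate, had 28, 28.4 and 26.6 CPM in -Asn against 76.2, 58.3 and 60.1 CPM in +Asn (log2 fold change -1.23 ± 0.09, edgeR adjusted p = 7.3e-09). All 3 were lower without overlap. NT5E, the surface enzyme CD73 that turns AMP into adenosine, was one of 3 pyrimidine list members called higher, with 15.7, 15.1 and 16.1 CPM in -Asn against 3.51, 2.99 and 3.42 CPM in +Asn (log2 fold change 2.24 ± 0.11, edgeR adjusted p = 4.1e-11); the others were NME6 and UPB1. SLC29A1, the main equilibrative nucleoside transporter, had 17.9, 15.2 and 15.3 CPM in -Asn against 93.4, 90.2 and 88.8 CPM in +Asn (log2 fold change -2.49 ± 0.09, edgeR adjusted p = 1.2e-12).

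Transporters of other solutes held some of the largest changes. SLC16A6, a monocarboxylate transporter family member, had 10.3, 11 and 12.5 CPM in -Asn against 0.214, 0.317 and 0.168 CPM in +Asn (log2 fold change 5.58 ± 0.20, edgeR adjusted p = 8e-13). SLC12A8, a cation-chloride cotransporter family member, had 22.2, 24.2 and 24.7 CPM in -Asn against 1.23, 1.3 and 0.981 CPM in +Asn (log2 fold change 4.34 ± 0.13, edgeR adjusted p = 6.5e-14). Both were above 10 CPM in every -Asn library and at most 1.30 CPM in every +Asn library. SLC5A3, the myo-inositol transporter, had 18.3, 35.5 and 36 CPM in -Asn against 110.2, 109.6 and 110.5 CPM in +Asn (log2 fold change -1.88 ± 0.17, edgeR adjusted p = 1.6e-07), with -Asn replicate 1 lowest. ABCB10, a mitochondrial ABC transporter, had 13.3, 14.2 and 15.3 CPM in -Asn against 76.8, 77.3 and 78.6 CPM in +Asn (log2 fold change -2.44 ± 0.10, edgeR adjusted p = 4.2e-12). Both carriers were lower in every -Asn library. ATP6V0A1, a membrane subunit of the vacuolar proton pump, had 29.3, 34.9 and 33.6 CPM in the -Asn libraries and 4.04, 3.69 and 4.26 CPM in the +Asn libraries (log2 fold change 3.03 ± 0.10, edgeR adjusted p = 4e-13). TCIRG1, the subunit that takes the same place in other pumps, had 19.7, 21 and 18.5 CPM in -Asn against 58.9, 51.7 and 56.7 CPM in +Asn (log2 fold change -1.50 ± 0.11, edgeR adjusted p = 6.7e-09). Per length, TCIRG1 remained the higher of the pair in both media: in CPM per kilobase of exon, ATP6V0A1 was at 2.97 in -Asn and 0.365 in +Asn, and TCIRG1 at 4.51 in -Asn and 12.7 in +Asn.

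In mitochondria, import factors, chaperones and proteases had 11 of the 46 members tested higher and 24 lower, with a median log2 fold change of -0.24. Chaperones and proteases of the matrix went both ways. LONP1, the ATP-dependent protease of the matrix, had 575, 498 and 475 CPM in the -Asn libraries and 159.9, 149.8 and 158 CPM in the +Asn libraries (log2 fold change 1.72 ± 0.08, edgeR adjusted p = 1.9e-11). HSPD1, the chaperonin HSP60, had 773, 705 and 752 CPM in -Asn against 1806, 1966 and 2005 CPM in +Asn (log2 fold change -1.37 ± 0.07, edgeR adjusted p = 1.2e-10). Its lid HSPE1 had 29.9, 22.4 and 23.8 CPM in -Asn against 121, 76.5 and 100.3 CPM in +Asn (log2 fold change -1.97 ± 0.14, edgeR adjusted p = 9.3e-09). LONP1 and HSPA9 were higher and HSPD1 and HSPE1 lower in every -Asn library. PINK1, the kinase that marks damaged mitochondria for removal, averaged 21.9 ± 4.57 CPM in -Asn and 8.92 ± 0.256 CPM in +Asn (SD, n = 3 each; log2 fold change 1.30 ± 0.13, edgeR adjusted p = 2.3e-07). The cytosolic chaperonin TRiC with prefoldin had 1 of the 19 members tested higher and 12 lower, with a median log2 fold change of -0.28, and with library totals 3 higher and 7 lower (median -0.08). In the reported counts CCT6B, a subunit known mainly from testis, was the single higher member (6.54 CPM in -Asn and 1.95 CPM in +Asn). CCT4, a subunit of the ring, had 178, 164 and 171 CPM in -Asn against 435, 405 and 416 CPM in +Asn (log2 fold change -1.29 ± 0.07, edgeR adjusted p = 7.8e-11).

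Polyamine enzymes had 6 of 16 higher and 10 lower, median log2 fold change -0.34, with 6 higher and 5 lower under library totals. SMOX, which oxidises spermine, had 8.59, 9.94 and 10.2 CPM in -Asn against 4.34, 3.77 and 3.14 CPM in +Asn (log2 fold change 1.35 ± 0.13, edgeR adjusted p = 1.1e-07). AMD1, which supplies the aminopropyl donor for synthesis, had 98, 112 and 118 CPM in -Asn against 250, 228 and 237 CPM in +Asn (log2 fold change -1.13 ± 0.07, edgeR adjusted p = 1.3e-09). An oxidising enzyme was thus higher and a synthetic one lower.

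In protein turnover, ubiquitin-specific proteases had 11 of the 62 members tested higher and 35 lower, with a median log2 fold change of -0.29, and with library totals 17 higher and 26 lower. F-box, BTB-Kelch and cullin genes had 37 of 101 higher and 33 lower, median log2 fold change 0.02, and with library totals 49 higher and 18 lower. FBXO39, an F-box protein described in testis, had 9.15, 9.6 and 11.9 CPM in -Asn against 1.12, 0.95 and 0.729 CPM in +Asn (log2 fold change 3.44 ± 0.16, edgeR adjusted p = 2.2e-11). FBXO32, the muscle atrophy ligase atrogin-1 and a known FOXO target, had 28.4, 30.3 and 29 CPM in -Asn against 9.66, 11.1 and 9.22 CPM in +Asn (log2 fold change 1.55 ± 0.09, edgeR adjusted p = 4.9e-10). USP37, which counters ubiquitin on cell cycle proteins, had 30.1, 44.1 and 47.5 CPM in -Asn against 101, 102 and 103 CPM in +Asn (log2 fold change -1.33 ± 0.12, edgeR adjusted p = 1.6e-07).

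Genes that guard replication and join broken ends leaned down. The list of end joining and DNA damage signalling had 8 of the 38 members tested higher and 26 lower, with a median log2 fold change of -0.79. TIMELESS, which protects replication forks, had 36.7, 33.6 and 33 CPM in the -Asn libraries and 214, 218 and 225 CPM in the +Asn libraries (log2 fold change -2.67 ± 0.07, edgeR adjusted p = 3.1e-14). CLSPN, claspin, which passes the checkpoint signal from ATR to CHEK1, had 81.1, 70.5 and 72.2 CPM in -Asn against 269, 301 and 286 CPM in +Asn (log2 fold change -1.94 ± 0.08, edgeR adjusted p = 2.7e-12). Both were over 3-fold lower with no overlap. TERT, the catalytic subunit of telomerase, had 6.1, 8.12 and 6.51 CPM in -Asn against 35.1, 31 and 33.8 CPM in +Asn (log2 fold change -2.27 ± 0.13, edgeR adjusted p = 3e-10). CHAF1B, a subunit of the histone chaperone that loads histones behind the fork, had 19.9, 16.6 and 17.3 CPM in -Asn against 84.3, 87.3 and 82.2 CPM in +Asn (log2 fold change -2.24 ± 0.09, edgeR adjusted p = 1.9e-12). SHLD1, a subunit of the shieldin complex that limits end resection, had 15.9, 11.2 and 12.3 CPM in -Asn against 6.24, 5.04 and 6.08 CPM in +Asn and was higher (log2 fold change 1.18 ± 0.13, edgeR adjusted p = 9.6e-07).

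Histone variants and chaperones had 5 of the 34 members tested higher and 20 lower, with a median log2 fold change of -0.45. HELLS, a remodeller needed for DNA methylation, had 68.7, 70.5 and 69.1 CPM in -Asn against 233, 261 and 242 CPM in +Asn (log2 fold change -1.82 ± 0.07, edgeR adjusted p = 1.5e-12). ARID1B, a subunit of the SWI/SNF remodeller, had 593, 714 and 719.7 CPM in -Asn against 249, 258 and 261 CPM in +Asn (log2 fold change 1.40 ± 0.08, edgeR adjusted p = 2.1e-10). The first was lower and the second higher in every -Asn library. RBBP7, a histone-binding subunit of several chromatin complexes, averaged 76.6 ± 1.61 CPM in -Asn and 261 ± 6.16 CPM in +Asn (SD, n = 3 each). Its close relative RBBP4 averaged 243 ± 13.4 CPM in -Asn and 647 ± 6.94 CPM in +Asn.

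Lists of signals between immune cells differed in their lean. TNF superfamily ligands and co-stimulatory receptors had 14 of the 23 members tested higher and 3 lower, with a median log2 fold change of 1.30, although most members stood under 5 CPM, where coding genes as a whole leaned up. Without -Asn replicate 1 the counts were 14 higher and 5 lower. CD86, a ligand that co-stimulates T cells, had 10.9, 8.79 and 10.7 CPM in the -Asn libraries and 0.268, 0.259 and 0.308 CPM in the +Asn libraries (log2 fold change 5.17 ± 0.19, edgeR adjusted p = 8.9e-13). VSIR, the inhibitory ligand VISTA, had 13.6, 10.7 and 11.2 CPM in -Asn against 1.1, 1.15 and 1.29 CPM in +Asn (log2 fold change 3.32 ± 0.15, edgeR adjusted p = 1.6e-11). Both were under 1.5 CPM in every +Asn library. The members called lower with all libraries were TNFSF4, the ligand OX40L, with 25.7, 30 and 31.3 CPM in -Asn against 88.9, 84.1 and 92 CPM in +Asn (log2 fold change -1.61 ± 0.08, edgeR adjusted p = 3.3e-11), ICOSLG and TNFRSF21. ICOSLG, the ligand of ICOS, had 6.55, 8.34 and 8.1 CPM in -Asn against 17.3, 14.4 and 14.4 CPM in +Asn. TNFRSF21, a death domain receptor, averaged 8.64 ± 0.339 CPM in -Asn and 15.8 ± 0.722 CPM in +Asn (SD, n = 3 each). The summed level of the list was 188.7 CPM in the -Asn libraries, on average, and 176.4 CPM in +Asn. Interleukins, cytokine receptors and their kinases had 26 of 65 higher and 19 lower, median log2 fold change 0.32, and with library totals 35 higher and 12 lower. Chemokines and their receptors had 7 of 25 higher and 7 lower, median log2 fold change 0.08, and with library totals 11 higher and 3 lower. IL6R, a receptor chain of interleukin-6, had 4.76, 4.53 and 5.4 CPM in -Asn against 22.9, 22.8 and 21.6 CPM in +Asn (log2 fold change -2.19 ± 0.12, edgeR adjusted p = 7.7e-11). IL1B, the inflammatory ligand, had 6.18, 6.08 and 6.02 CPM in -Asn against 24.3, 23.1 and 22.2 CPM in +Asn (log2 fold change -1.93 ± 0.11, edgeR adjusted p = 3.7e-10). IL1R1, a receptor of interleukin-1, had 7.89, 11.5 and 11.3 CPM in -Asn against 1.95, 2.68 and 2.92 CPM in +Asn (log2 fold change 2.03 ± 0.17, edgeR adjusted p = 1.8e-08). For interleukin-1, the ligand was thus lower and the receptor higher. The myeloid marker sum, given above, was higher in -Asn, and its part in the rises of CD86, VSIR and OSCAR was not tested.

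In the TGF-beta family, BMP2 (chr20:6767686-6780246), a bone morphogenetic protein, had 22.6, 20.3 and 21.3 CPM in the -Asn libraries and 0.241, 0.115 and 0.224 CPM in the +Asn libraries (log2 fold change 6.75 ± 0.17, edgeR adjusted p = 8.2e-15). NOG, noggin, which binds and blocks such ligands, had 126, 112 and 110.3 CPM in -Asn against 24.4, 19.7 and 21.2 CPM in +Asn (log2 fold change 2.42 ± 0.09, edgeR adjusted p = 1.2e-12). The ligand and its antagonist were both higher in every -Asn library. LTBP2, a matrix protein of the latent TGF-beta binding family, had 9.44, 10.5 and 9.74 CPM in -Asn against 25.9, 24.2 and 24 CPM in +Asn (log2 fold change -1.32 ± 0.10, edgeR adjusted p = 6e-09). The list as a whole had 19 of 47 higher and 16 lower, median log2 fold change 0.13. HBEGF, a ligand of the EGF receptor, averaged 123.3 ± 11.1 CPM in -Asn and 37 ± 0.235 CPM in +Asn (SD, n = 3 each).

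KLF, SP and EGR factors had 12 of the 25 members tested higher and 5 lower, with a median log2 fold change of 0.38. KLF2, a factor of lymphocyte quiescence, had 15.9, 14.5 and 11.1 CPM in the -Asn libraries and 0.589, 0.346 and 0.673 CPM in the +Asn libraries (log2 fold change 4.67 ± 0.24, edgeR adjusted p = 6.5e-11). ZBTB7B, a zinc finger factor known for CD4 T cell fate, had 51.5, 62.1 and 60.7 CPM in -Asn against 8.41, 6.54 and 6.31 CPM in +Asn (log2 fold change 3.03 ± 0.11, edgeR adjusted p = 8.6e-13). In complete medium KLF2 stayed under 1 CPM. Of the nuclear receptors, NR4A2 had 26.6, 23.9 and 29.1 CPM in -Asn against 2.41, 2.53 and 1.93 CPM in +Asn (log2 fold change 3.53 ± 0.13, edgeR adjusted p = 8.1e-13) and NR4A3 had 7.33, 8.47 and 12.3 CPM in -Asn against 0.883, 1.38 and 0.813 CPM in +Asn (log2 fold change 3.19 ± 0.28, edgeR adjusted p = 9.6e-08), both orphan receptors induced early in stimulated cells. BHLHE40, a repressor that acts on the circadian clock, had 20.7, 22.8 and 23.2 CPM in -Asn against 1.07, 1.24 and 1.4 CPM in +Asn (log2 fold change 4.17 ± 0.12, edgeR adjusted p = 9.2e-14). WT1, a zinc finger factor often expressed in acute leukaemia, was lower, with 17, 14.4 and 14.8 CPM in -Asn against 33.1, 36.5 and 34 CPM in +Asn (log2 fold change -1.16 ± 0.09, edgeR adjusted p = 8.7e-09).

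Kinase and G protein signalling lists changed in both directions. DUSP10, a phosphatase of JNK and p38, had 68.1, 68.3 and 68.1 CPM in the -Asn libraries and 6.77, 7.92 and 8.1 CPM in the +Asn libraries (log2 fold change 3.17 ± 0.09, edgeR adjusted p = 6.5e-14). SGK1, a kinase downstream of PI3 kinase, had 28, 31.1 and 31.5 CPM in -Asn against 5.01, 4.78 and 5.41 CPM in +Asn (log2 fold change 2.57 ± 0.09, edgeR adjusted p = 8.2e-13). PIK3CD, the leukocyte catalytic subunit of PI3 kinase, had 81.1, 82.7 and 79.7 CPM in -Asn against 213, 192 and 207 CPM in +Asn (log2 fold change -1.33 ± 0.07, edgeR adjusted p = 3.5e-11). Regulators of MAP kinases and PI3 kinase thus included genes of both directions. GPR18, a lymphocyte receptor, had 73.8, 65.9 and 70.2 CPM in -Asn against 5.43, 4.78 and 5.52 CPM in +Asn (log2 fold change 3.73 ± 0.09, edgeR adjusted p = 8.2e-15). RGS1, which turns off G proteins in B cells, had 11.1, 8.42 and 10.2 CPM in -Asn against 1.04, 1.27 and 0.813 CPM in +Asn (log2 fold change 3.24 ± 0.18, edgeR adjusted p = 2.1e-10). CDC42EP3, an effector of CDC42, had 194, 182 and 194 CPM in -Asn against 9.5, 10.1 and 9.47 CPM in +Asn (log2 fold change 4.29 ± 0.08, edgeR adjusted p = 7.3e-16). Ion channels had 40 of 87 higher and 18 lower, median log2 fold change 0.46, and SCN4A, the sodium channel of skeletal muscle, had 29.2, 28.5 and 28 CPM in -Asn against 3.16, 2.79 and 2.24 CPM in +Asn (log2 fold change 3.38 ± 0.12, edgeR adjusted p = 5.2e-13). S100A4 and S100A11, small calcium-binding proteins, went opposite ways, S100A4 averaging 36.5 ± 9.01 CPM in -Asn and 204 ± 29.6 CPM in +Asn and S100A11 91.7 ± 20 CPM in -Asn and 26.9 ± 2.14 CPM in +Asn (SD, n = 3 each).

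Adhesion and cytoskeleton genes showed the same mixture. UNC5B (chr10:71212570-71302864), a netrin receptor, had 53.6, 60 and 52.5 CPM in the -Asn libraries and 0.803, 0.893 and 1.35 CPM in the +Asn libraries (log2 fold change 5.77 ± 0.13, edgeR adjusted p = 3.7e-15). ITGA6, the alpha-6 integrin that binds laminin, had 38.4, 50.3 and 51.6 CPM in -Asn against 6.37, 6.25 and 6.14 CPM in +Asn (log2 fold change 2.90 ± 0.11, edgeR adjusted p = 1.1e-12). FN1, fibronectin, had 23, 25.8 and 26.4 CPM in -Asn against 1.93, 2.39 and 3.17 CPM in +Asn (log2 fold change 3.33 ± 0.14, edgeR adjusted p = 7.7e-12). For these the -Asn libraries were all above the +Asn libraries. PECAM1, an adhesion molecule of leukocytes and endothelium, had 0.936, 1.65 and 1.45 CPM in -Asn against 11.3, 10.1 and 9.84 CPM in +Asn (log2 fold change -2.94 ± 0.19, edgeR adjusted p = 8e-10). SPARC, a collagen-binding matrix protein, had 1.95, 1.35 and 1.45 CPM in -Asn against 10.9, 11.7 and 11.1 CPM in +Asn (log2 fold change -2.82 ± 0.18, edgeR adjusted p = 7.4e-10). Both were lower in every -Asn library. Protocadherins and cadherins had 22 of the 42 members tested higher and 7 lower, with a median log2 fold change of 0.88, most of them at low level, and PCDH12 had 38, 35.3 and 36.4 CPM in -Asn against 3.56, 3.11 and 2.35 CPM in +Asn (log2 fold change 3.60 ± 0.12, edgeR adjusted p = 2.5e-13). Tubulins and microtubule regulators had 10 of 41 higher and 24 lower, median log2 fold change -0.30. TBCC, a tubulin folding cofactor, averaged 74.8 ± 8.04 CPM in -Asn and 20.2 ± 0.859 CPM in +Asn, and TUBG1, the gamma tubulin of the centrosome, averaged 18.6 ± 2.5 CPM in -Asn and 62.2 ± 2.7 CPM in +Asn (SD, n = 3 each). SYNE2, a giant protein of the nuclear envelope, had 28.4, 57.8 and 58.9 CPM in -Asn against 196, 232 and 251 CPM in +Asn (log2 fold change -2.22 ± 0.20, edgeR adjusted p = 1.1e-07), lowest in -Asn replicate 1. CXCR4, the homing receptor of bone marrow, had 87, 87.7 and 84.6 CPM in -Asn against 170.2, 159.5 and 154 CPM in +Asn (log2 fold change -0.90 ± 0.08, edgeR adjusted p = 5.4e-08).

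Noncoding and coding genes had different shares of calls, mainly above 5 CPM. Of 3274 tested genes for long noncoding RNA (lncRNA), 1298 (39.6%) were called higher and 318 (9.71%) lower, whereas of 12401 coding genes 3836 (30.9%) were higher and 4817 (38.8%) lower. The lncRNA genes made up 2.066% to 2.178% of the counts in -Asn and 1.26% to 1.30% in +Asn, and without MALAT1 1.81% to 1.90% in -Asn and 1.18% to 1.19% in +Asn. Under 1 CPM, where 1914 of the lncRNA genes lay, the kinds were close: 33.3% of lncRNA genes were higher and 4.75% lower, and of 1503 coding genes 35.9% were higher and 9.58% lower. From 1 to 5 CPM, 46.8% of lncRNA genes were higher and 14.7% lower. Among coding genes above 1 CPM, the share called higher declined with the level from the 1 to 5 CPM class (43.5%) to the class above 100 CPM (20.6%), while the share called lower grew from 22.7% to 55.3%. The lncRNA genes kept more rises than falls in every class of level, and above 5 CPM 209 of 396 were higher and 85 lower. Without -Asn replicate 1, 1218 lncRNA genes were called higher and 304 lower. With library totals, lncRNA genes stood at 1575 higher and 203 lower, and the coding genes turned to 5144 higher and 3459 lower. A split by level was chosen after the values were seen.

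**Figure D4:**
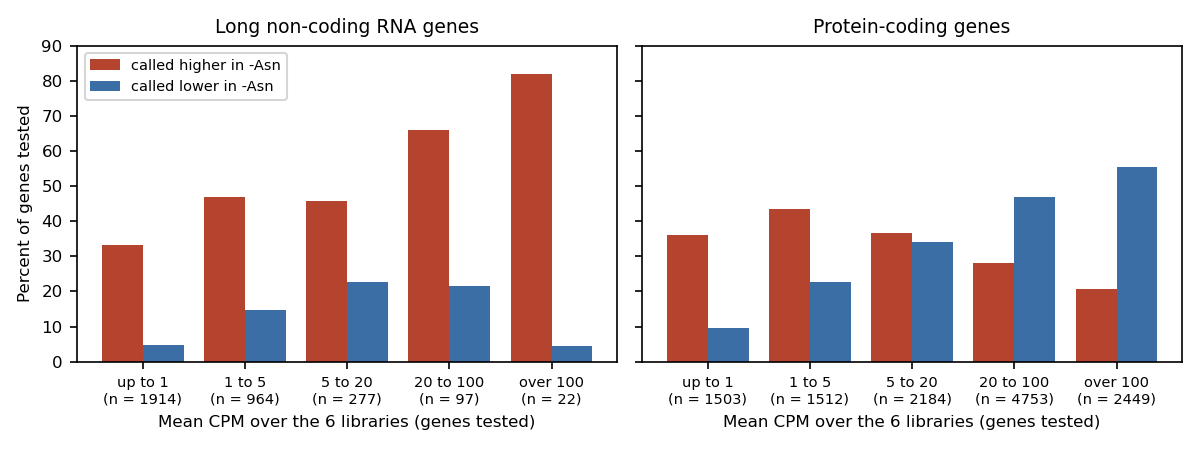
Percent of tested genes called higher (left bar of each pair) and lower (right bar) in -Asn by class of mean CPM, for lncRNA genes (left panel) and coding genes (right panel); the number tested stands under each pair. Above 100 CPM, 18 of 22 lncRNA genes are higher and 1 lower, while 504 of 2449 coding genes are higher and 1355 lower.

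By kind of lncRNA, intergenic genes named LINC had 163 of 334 higher and 38 lower, median log2 fold change 0.71, antisense genes 300 of 570 higher and 45 lower, median log2 fold change 0.66, and divergent transcripts 146 of 292 higher and 19 lower, median log2 fold change 0.68. With library totals the antisense genes had 352 higher and 29 lower, and the divergent transcripts 171 higher and 11 lower. The sources used here give no strand setting for the counting, and reads of an antisense gene and of its partner cannot be told apart. L3MBTL2-AS1 (chr22:41207592-41228500) had 36.1, 30.1 and 29 CPM in the -Asn libraries and 0.375, 0.317 and 0.42 CPM in the +Asn libraries (log2 fold change 6.40 ± 0.15, edgeR adjusted p = 6.1e-15). LINC02207, an intergenic gene, had 34.5, 39.7 and 40.6 CPM in -Asn against 3.61, 3.43 and 3.31 CPM in +Asn (log2 fold change 3.47 ± 0.10, edgeR adjusted p = 8e-14). In both, each -Asn library was at least 9-fold above each +Asn library. MIR17HG, the host of the miR-17-92 cluster of growth-promoting microRNAs, was lower, with 8.5, 8.61 and 8.68 CPM in -Asn against 28.6, 28.8 and 29.3 CPM in +Asn (log2 fold change -1.75 ± 0.10, edgeR adjusted p = 1.2e-10). MIR99AHG, the host of miR-99a and let-7c, was higher, with 12.1, 16.6 and 17.7 CPM in -Asn against 3.19, 4.32 and 4.2 CPM in +Asn (log2 fold change 1.99 ± 0.15, edgeR adjusted p = 6.2e-09). Ribosomal protein pseudogenes had 27 of 281 higher and 10 lower, median log2 fold change 0.18, but without -Asn replicate 1 the counts were 14 higher and 19 lower, so that lean rests on that library. With library totals they were 71 higher and 6 lower.

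Promoters were read from RefSeq sequences of GRCh38.p14, each running from 250 bases before to 50 bases after a start site, matched by symbol to 10042 of the 12401 coding genes tested, with the start nearest the 5′ end of the gene model where several were listed. A match on either strand to TGATGNAA, the core of the composite site that ATF4 shares with C/EBP partners, was found in 3.3% of promoters of genes at least 2-fold higher in -Asn (36 of 1091), in 1.27% of those at least 2-fold lower (12 of 947), in 1.59% of the others tested (127 of 8004) and in 3.68% of all 27305 promoters in the table. The share over all called genes was lower, at 2.27% of genes called higher. The AP-1 element TGANTCA was in 7.06% of risen, 3.7% of fallen and 3.95% of other promoters (7.73% of all). The E2F-like element TTTNNCGC went the other way, at 7.33% of risen, 13.5% of fallen and 10.9% of others (7% of all). The ETS element CCGGAAGT was less common at both ends, at 4.77% of risen, 3.8% of fallen and 9.88% of others (4.42% of all). For risen genes this held only at the 2-fold threshold. Over all called genes the ETS element was in 10.2% of those higher and 7.64% of those lower, against 8.78% of genes not called. Promoters of risen genes were also poorer in G and C, with a median of 63.7% against 67.3% in fallen and 65% in other genes. The part of base composition, or of the lower level of many risen genes, in the motif shares was not tested. These shares are descriptions of letters and show no binding.

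Of the genes named from the lists or as the largest changes outside them, those with at least a 4-fold rise were scanned first. None held TGATGNAA in the 250 bases before its start (0 of 37 with a promoter). Genes named only for their rise in CPM, such as WARS1, ASS1 and ATF5, were not in this count. A wider scan covered 109 coding genes with a promoter. Each had a called rise of at least 4-fold, a mean of at least 5 CPM and separate groups. This scan did not take in every such gene, and the best known genes of the response were left out. In it 4 genes held TGATGNAA, chosen after their values were seen. For each, 100 bases around the match are shown with the match in capitals, on the strand of the gene. The share in the same 250 bases over all genes tested is not given, so neither count can be read as a low or high rate. The sequences are from RefSeq, GRCh38.p14: chr14:24576312-24576411 (minus strand), chr1:27341922-27342021 (plus), chr10:99430769-99430868 (minus) and chr3:123620699-123620798 (minus), all before the start site.
CTSG: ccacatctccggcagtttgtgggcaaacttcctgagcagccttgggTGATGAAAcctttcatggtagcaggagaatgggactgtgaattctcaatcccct
SYTL1: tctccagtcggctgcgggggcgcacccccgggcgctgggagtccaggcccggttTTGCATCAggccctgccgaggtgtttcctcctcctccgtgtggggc
GOT1: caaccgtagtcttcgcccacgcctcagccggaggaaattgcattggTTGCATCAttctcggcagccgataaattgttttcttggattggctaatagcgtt
MYLK: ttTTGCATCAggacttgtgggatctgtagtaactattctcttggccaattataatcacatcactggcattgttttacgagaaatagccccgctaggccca
In CTSG the first base of the match lies 115 bases before the start, in SYTL1 46, in GOT1 198 and in MYLK 248, and in all but CTSG the letters read TTGCATCA because the match is on the opposite strand. CTSG, the serine protease cathepsin G of myeloid granules, had 16.6, 12.1 and 11.2 CPM in the -Asn libraries and 0.803, 0.806 and 0.869 CPM in the +Asn libraries (log2 fold change 4.0 ± 0.18, edgeR adjusted p = 1.1e-11). SYTL1, a RAB27 effector in secretion, had 128, 122.9 and 105 CPM in -Asn against 8.35, 7.11 and 8.83 CPM in +Asn (log2 fold change 3.87 ± 0.10, edgeR adjusted p = 2.5e-14). GOT1, the cytosolic transaminase that interconverts aspartate and glutamate, had 339.7, 288 and 282 CPM in -Asn against 45.3, 43.3 and 47 CPM in +Asn (log2 fold change 2.75 ± 0.08, edgeR adjusted p = 1.3e-13). MYLK, myosin light chain kinase, averaged 8.34 ± 0.412 CPM in -Asn and 2 ± 0.334 CPM in +Asn (SD, n = 3 each). All 4 were higher in every -Asn library. ELANE, AZU1 and MPO, granule proteins of the same myeloid cells as CTSG, averaged under 1 CPM in both media. Other myeloid markers differed. CSF1R averaged 16.6 CPM in -Asn and 9.67 CPM in +Asn, CD33 2.94 and 1.9 CPM, CEBPE 1.96 and 1.34 CPM, and LYZ 0.347 and 1.31 CPM. Of the 10 myeloid markers, 3 were called higher and 1 lower.

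H3K4me3, a histone mark of active start sites, was mapped in the same 3 media and is used here as peak positions only. Of 1434 coding genes at least 2-fold higher in -Asn, 60.5% had a peak within 1 kb of the 5′ end in all 3 -Asn libraries and 55.9% in all 3 +Asn libraries. Of 1192 genes at least 2-fold lower, 81.0% had one in all -Asn and 80.3% in all +Asn libraries, and of 3748 coding genes not called 75.9% in -Asn and 75.2% in +Asn. For genes at least 8-fold higher the shares were 41.1% in -Asn and 37.1% in +Asn, of 224. The classes differed in level. Of coding genes under 1 CPM, 32.9% were at least 2-fold higher and 8.05% at least 2-fold lower, against 3.51% and 10.7% of those above 100 CPM. The part of level in the peak shares was not tested. A peak in all -Asn and no +Asn library was found at 34 of the risen genes, 4 of the fallen and 11 of those not called. TREML2 was among the 34, in 3 of 3 -Asn and 0 of 3 +Asn libraries. By contrast BMP2, UNC5B, KLF2, NIBAN1 and JUN had the peak in all 3 libraries of both media, and ASXL3, BEST1 and CDC42EP3 in none. A gene with no peak at its outermost 5′ end may start elsewhere, which was not tested.

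**Figure D5:**
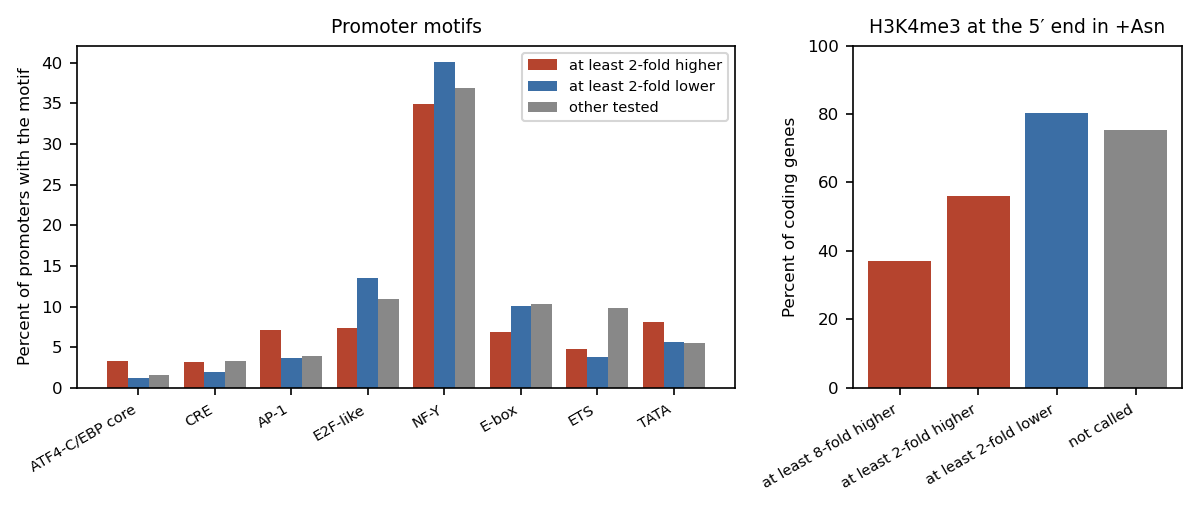
Left, percent of RefSeq promoters that hold each motif, for coding genes at least 2-fold higher in -Asn, at least 2-fold lower, and all others tested. Right, percent of coding genes with an H3K4me3 peak within 1 kb of the 5′ end in all 3 +Asn libraries, from 37.1% of genes at least 8-fold higher to 80.3% of genes at least 2-fold lower. The classes are not matched for level.

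The comparison with -Asn+Fe uses the same -Asn libraries, so its values are only set side by side. Between -Asn+Fe and -Asn, 14.2% of genes were called higher and 17% lower. CD86 averaged 4.32 ± 0.163 CPM in -Asn+Fe and 10.1 ± 1.16 CPM in -Asn (log2 fold change -1.23, edgeR adjusted p = 1.9e-06). ASXL3 averaged 45.5 ± 1.94 CPM in -Asn+Fe and 19.4 ± 2.97 CPM in -Asn (log2 fold change 1.23, edgeR adjusted p = 5.5e-07). CLSPN averaged 19.6 ± 1.27 CPM in -Asn+Fe and 74.6 ± 5.71 CPM in -Asn (log2 fold change -1.93, edgeR adjusted p = 1e-10). OSCAR, TREML2, NIBAN1 and BEST1 did not pass this test, with log2 fold changes between -0.18 and 0.19. TNFSF4 averaged 67.1 ± 0.977 CPM in -Asn+Fe and 29 ± 2.95 CPM in -Asn (log2 fold change 1.21, edgeR adjusted p = 9.8e-09), and TXNRD1, the selenoprotein thioredoxin reductase, 580.5 ± 4.27 CPM in -Asn+Fe and 264 ± 12.1 CPM in -Asn (log2 fold change 1.14, edgeR adjusted p = 3.2e-09). All these SDs are over 3 libraries.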

How the data were processed

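The deposited table holds whole-number counts of reads per gene, and per the submitters' processing notes the tools were bcl2fastq, the aligner STAR (2.7.2a) and, for counting, featureCounts from Subread (1.6.5), with hg38. For strand setting, multi-mapping reads and annotation release, nothing is stated: not given in the sources used here. H3K4me3 regions are the authors' merged peak table, for which the submitters' processing notes name Bowtie2 (2.4.4), the tool Picard (2.18.26) and the peak caller MACS2 (2.2.7.1). Its lines hold 13 fields under 12 names, since the region is followed by an unnamed field, and the last 9 fields were taken as the 9 named libraries; only positions were used.

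Genes on other contigs (6135) and Y copies of the pseudoautosomal regions (45) were left out. Symbols were taken by gene ID from a name table that held 60261 of the 60558 IDs. edgeR 4.0.16 (R 4.3.3) was run on the deposited counts of the 9 RNA libraries with filterByExpr, TMM factors, robust glmQLFit and glmQLFTest, with medium as the only term. Standard errors are the absolute log2 fold change over the square root of F. A gene was called at a Benjamini-Hochberg adjusted p under 0.05 over 17692 genes. CPM are counts over TMM-scaled library totals. The test was also tried on simulated counts, whose means and spreads were taken from the fit to these data. Values after ± are these standard errors for log2 fold changes and SDs over 3 libraries for mean CPM. Both rest on the spread between libraries, which may be technical. DESeq2 1.42.0 was an alternative.

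Named genes were up to 2 called genes per direction in each of 74 lists, 12 per direction outside the lists, each with a mean of at least 5 CPM, separate groups and the largest fold change, and the 10 largest rises and falls in mean CPM. A selection of these is printed, and single exceptions within a list, markers, HNRNPR, HNRNPL and the 4 promoter genes were chosen after their values were seen. The comparison, gene lists and rules were chosen with earlier results of these data known. Motifs and H3K4me3 were read at the outer 5′ end, and figures were drawn with matplotlib 3.10.9.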

Additional observations from a re-analysis of the deposited data

How the results depend on the processing

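The counts of genes called higher, lower and at least 2-fold changed were recomputed under DESeq2, RLE, upper-quartile or library-total scaling, no and a stricter low-count filter, a test against a 1.2-fold change, a fit of the 6 libraries alone, a replicate block and each library left out. The stricter filter (a mean of 5 CPM, with 3 libraries reaching 1 CPM) tested 10090 genes and gave 892 genes at least 2-fold higher and 709 lower. The other counts stayed within 1.5 times the reported ones. Leaving out each library in turn gave 4941 to 5572 genes higher, 5010 to 5616 lower, 2472 to 2661 at least 2-fold higher and 1456 to 1567 at least 2-fold lower. DESeq2 called 5313 genes higher and 5499 lower. With a replicate block 5401 genes were higher, 5296 lower, 2567 at least 2-fold higher and 1460 at least 2-fold lower. Same-numbered -Asn and +Asn libraries had correlations of their deviations of 0.074, -0.021 and 0.042, and not every library correlated best with its own number. With 3 libraries per group and -Asn replicate 1 apart, such correlations cannot show whether the numbers mark a shared culture or day.

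Among the named genes, 24 of 6054 recomputed values lost the call and none changed sign. Besides those given in the report, the calls of NME6, DBT, UGCG, CMTM6 and TERF1 were lost against a 1.2-fold change, with edgeR adjusted p from 0.063 to 0.19, that of UGCG also without +Asn replicate 3 (0.064) or -Asn replicate 3 (0.054), that of SNORD3A with no filter (0.0502), that of CMTM6 with upper-quartile factors (0.0501) or library totals (0.21), those of MT-RNR2, MT-ND4 and MT-CO3 with upper-quartile factors and against a 1.2-fold change too (edgeR adjusted p from 0.057 to 0.13), those of MT-RNR2 and MT-ND4 with the stricter filter (0.067 and 0.061), and that of HNRNPL with library totals (0.058) and without +Asn replicate 1 (0.064). The cause was not tested. With a 2 kb window in place of 1 kb, 39.3% of coding genes at least 8-fold higher had an H3K4me3 peak in all 3 +Asn libraries, and 81.7% of those at least 2-fold lower. A planned reading of protein asparagine content was not run, since no protein sequences were used here. Genes with few counts in +Asn limit the precision of the largest fold changes.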
